A study of Mus musculus with 16 samples.

Results

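The protein folding machinery of the endoplasmic reticulum (ER) was followed in mouse pancreas through 39 named genes for ER chaperones, folding enzymes, ER-associated degradation and the stress sensors that regulate them. The members were chosen by gene symbol, and all 39 were found among the 24019 genes of the deposited count table. All 39 passed the filter on low counts and were among the 8236 genes tested. They were divided by role into 12 chaperones, 13 folding enzymes, 9 degradation genes and 5 sensors and transcription factors.

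The 16 libraries fall into 4 groups of 4 libraries each, namely Adam17ex mice given cerulein, Adam17ex mice given PBS, WT mice given cerulein and WT mice given PBS. Adam17ex mice were homozygous for Adam17ex, a hypomorphic allele that lowers the amount of the membrane protease ADAM17. The allele is carried by every cell of the mouse, so the design does not separate an effect in acinar cells from one in other cells. WT mice were littermates, and all animals were of C57BL/6J background and 6 to 8 weeks old. Acute pancreatitis was induced by 7 hourly intraperitoneal injections of cerulein at 50 µg per kg, with PBS injections as the control, and mice were culled 1 h after the last injection. Cerulein is a peptide that acts on the cholecystokinin receptors of acinar cells. The labels give 2 males in Adam17ex cerulein, 2 in Adam17ex PBS, 1 in WT cerulein and 0 in WT PBS. The labels call the libraries replicates without saying that each is a separate mouse, so p-values measure the spread between these libraries.

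The pancreatic acinar cell makes large amounts of digestive enzymes, and all of them enter the ER as unfolded chains. Chaperones such as BiP (Hspa5) hold these chains, disulfide isomerases and prolyl isomerases fold them, and ER-associated degradation moves chains that fail to fold back to the cytosol for the proteasome. The sensors IRE1 (Ern1), PERK (Eif2ak3) and ATF6 read the load of unfolded protein, and through XBP1, ATF4 and cleaved ATF6 raise the genes of this machinery, a programme called the unfolded protein response.

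Library depth ranged from 455547 to 1476159 unique molecular identifiers (UMIs, tags that mark each captured transcript). Adam17ex PBS replicates 1, 2 and 3 were the shallowest libraries, and a ribosomal RNA gene took 7.84% to 9.02% of their UMIs, against 2.02% to 5.04% in the other libraries. Levels below are CPM, which are counts scaled to the library's UMIs of tested genes and corrected with TMM factors, and 1 UMI is worth 0.681 to 2.60 CPM depending on the library. Counts start from the poly(A) tail and sit near the 3′ end of a transcript, so the splicing of Xbp1 by IRE1 was not measured. All 22 markers of acinar cells were detected, with summed levels of 329255 to 414169 CPM in Adam17ex cerulein, 258003 to 465636 in Adam17ex PBS, 220014 to 339205 in WT cerulein and 360129 to 440840 in WT PBS libraries.

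The unfolded protein response acts through short DNA elements, and members whose promoters carry certain of these before the start are shown here with the element. Promoters (RefSeq, GRCm38.p6, from 250 bases before the annotated start to 50 after it) were matched for 33 of the 39 members. The ER stress element (ERSE), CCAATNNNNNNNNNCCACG searched on both strands, was found in the 250 bases before the start of 9 of the 33 members (27.3%) and of 35 of all 27025 genes with a promoter (0.13%). These members were Calr, Canx, Creld2, Derl3, Dnajc3, Hsp90b1, Hspa5, Pdia6 and Syvn1. A related element, ERSE-II (ATTGGNCCACG, both strands), stood before the start of Herpud1 and of 0.037% of all genes. Over all 300 bases of the promoter it was also found in Dnajb11, and in 0.0444% of all genes. Each sequence below reads 5′ to 3′ along the gene's strand, with the fixed letters of the element in capitals, and all but that of Hspa5 extend 15 bases to either side of the match. CGTGG followed by ATTGG is the element on the opposite strand.
Hspa5, chr2:34772025-34772043, plus strand: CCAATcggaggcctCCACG
Hsp90b1, chr10:86705623-86705671, minus strand: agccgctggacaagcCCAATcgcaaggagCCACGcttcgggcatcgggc
Hsp90b1, chr10:86705518-86705566, minus strand: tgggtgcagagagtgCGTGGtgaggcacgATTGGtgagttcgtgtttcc
Calr, chr8:84847060-84847108, minus strand: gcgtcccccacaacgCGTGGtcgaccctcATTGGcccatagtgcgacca
Canx, chr11:50325785-50325833, minus strand: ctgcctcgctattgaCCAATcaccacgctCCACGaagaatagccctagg
Creld2, chr15:88819505-88819553, plus strand: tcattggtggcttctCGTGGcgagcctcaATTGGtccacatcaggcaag
Dnajc3, chr14:118937812-118937860, plus strand: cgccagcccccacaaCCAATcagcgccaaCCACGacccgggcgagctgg
Pdia6, chr12:17266476-17266524, plus strand: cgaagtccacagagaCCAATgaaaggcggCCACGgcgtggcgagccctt
Derl3, chr10:75893227-75893275, plus strand: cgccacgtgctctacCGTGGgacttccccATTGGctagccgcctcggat
Syvn1, chr19:6046517-6046565, plus strand: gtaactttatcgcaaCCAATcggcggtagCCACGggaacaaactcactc
Herpud1, chr8:94386362-94386402, plus strand: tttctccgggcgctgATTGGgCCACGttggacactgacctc
Positions are counted from the RefSeq start, which can differ from the gene start in the coordinates given with each gene. The match lay 65 to 47 bases before the RefSeq start of Hspa5, inside the gene as those coordinates give it, 52 to 42 before that of Herpud1 and 212 to 194 before that of Hsp90b1, whose second match lay 107 to 89 bases before the start. The shorter element UPRE (TGACGTGG, both strands) was found before the start of Txndc11 and Txndc5, 6.06% of the 33 members against 0.603% of all genes. A match of letters describes the sequence and does not show that a factor binds there.

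Cerulein lowered most of the folding and degradation machinery in WT pancreas. In edgeR's quasi-likelihood test, with p-values adjusted over all 8236 genes and called under 0.05, 30 of the 39 members fell and 3 rose. Over all tested genes 21.3% were called lower and 19.8% higher in this comparison. The median log2 fold change of the members was -1.29, against -0.04 over all tested genes. By role, 10 of 12 chaperones, 11 of 13 folding enzymes, 7 of 9 degradation genes and 2 of 5 sensors fell, while 1 folding enzyme and 2 sensors rose. The members together took 0.659% ± 0.0759 of all UMIs in WT cerulein and 1.20% ± 0.0367 in WT PBS libraries (SD, n = 4 each).

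In Adam17ex pancreas the response was called for fewer members, with 13 of 39 lower and 4 higher. Over all tested genes 16.2% were called lower and 14.1% higher. The median log2 fold change of the members was -0.26, against -0.03 over all tested genes. All 13 members that fell in Adam17ex also fell in WT, and the other 17 members that fell in WT were not called in Adam17ex. The members took 0.750% ± 0.0426 of UMIs in Adam17ex cerulein and 0.884% ± 0.0663 in Adam17ex PBS libraries. Without Adam17ex PBS replicates 1, 2 and 3, the shallow libraries, fewer members were called in this comparison. That run leaves 1 library in the group, and the median was -0.22 for the members and 0.04 over all tested genes. Fewer cells of a type and less RNA per cell cannot be told apart in these bulk samples.

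**Figure D1:**
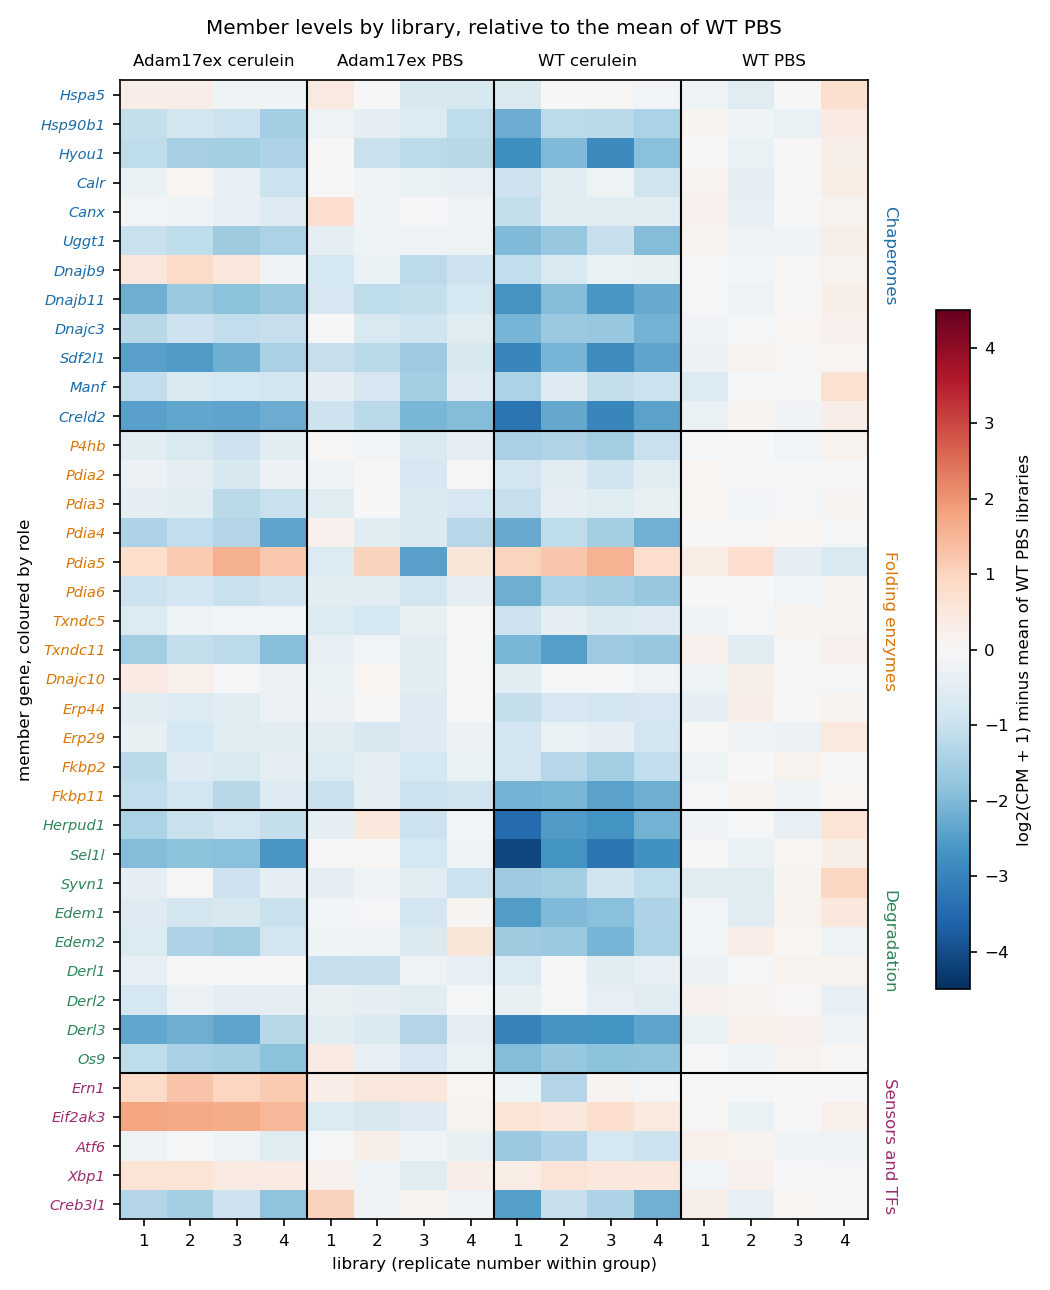
Level of each of the 39 members (rows, coloured and grouped by role) in each of the 16 libraries (columns, numbered by replicate within group), as log2(CPM + 1) minus the mean of the 4 WT PBS libraries. Blue cells are below and red cells above that mean; WT cerulein columns are blue for most chaperones, folding enzymes and degradation genes, and Eif2ak3 is red in all 4 Adam17ex cerulein columns.

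The difference between the genotypes in the cerulein response was tested itself, as the interaction (the log2 fold change with cerulein in Adam17ex minus that in WT). In edgeR's test at an adjusted p under 0.05, it was called higher for 16 members and lower for 0, and 3.75% of all tested genes were called higher and 2.27% lower. DESeq2 gave the same counts for the members. At an unadjusted p under 0.05, edgeR gave 24 members higher and 0 lower, against 12.4% and 9.49% of all tested genes. The estimate was above 0 for 39 of 39 members and for 49.2% of all genes, with medians of 0.94 and -0.01. At an interaction above 0, cerulein lowered a gene less, or raised it more, in Adam17ex than in WT. The 16 members were 6 chaperones, 4 folding enzymes, 5 degradation genes and 1 sensor. Leaving out Adam17ex cerulein replicate 2 brought the count to 10. Over all genes that run called 239 of 8645, while the main run called 309 higher and 187 lower of 8236. Fewer members were also called without Adam17ex PBS replicates 1, 2 and 3 together, which leaves 1 library in that group. The median was then 0.97 for the members and 0.08 over all genes.

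**Figure D2:**
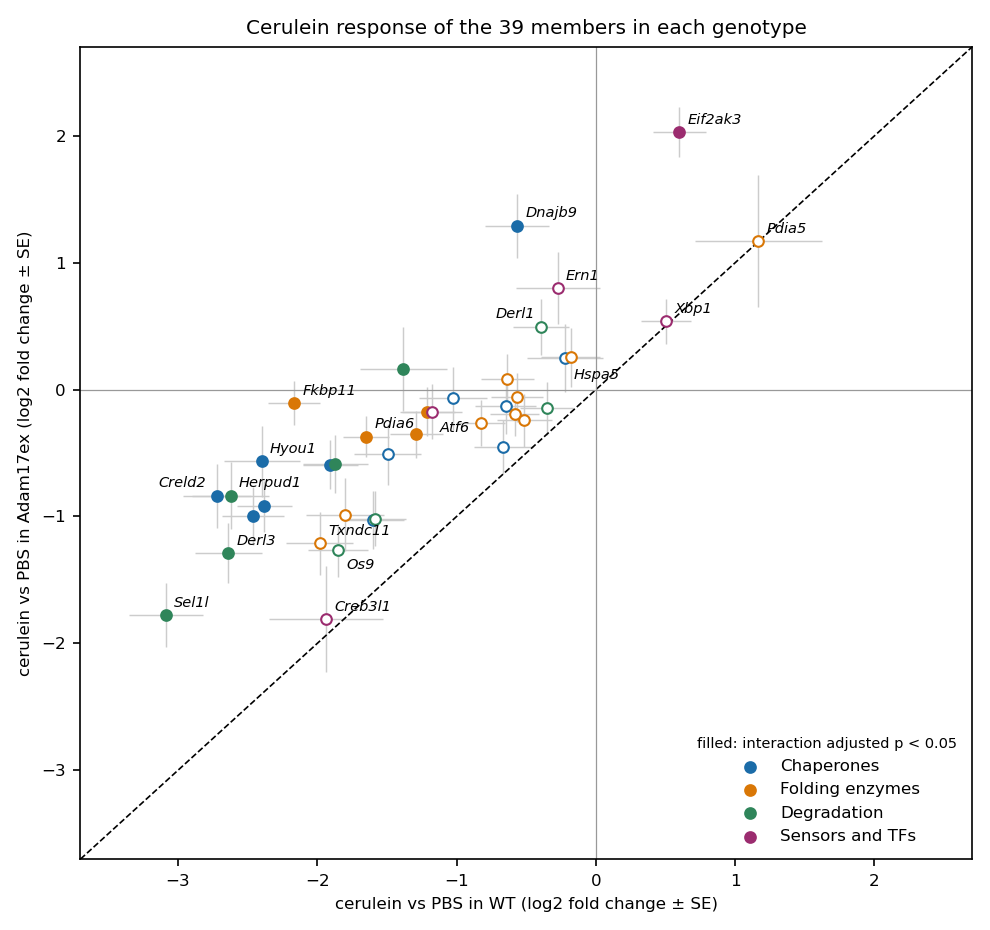
Log2 fold change with cerulein in Adam17ex mice (vertical axis) against that in WT mice (horizontal axis) for the 39 members, with SE bars, coloured by role. All 39 points lie on or above the dashed line of equal response, and the 16 filled points passed the test of the interaction; the axes share the interaction's values and are not independent of it.

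Values written with ± below are log2 fold changes with their SE unless they are given in CPM, and gene coordinates are those of GRCm38. Of the chaperones, Hspa5 (chromosome 2, 34771970 to 34777547, plus strand), which encodes the main ER chaperone BiP, was not called in any comparison. Hspa5 had 1166, 1153, 833 and 824 CPM with cerulein and 1254, 950.2, 573 and 574 CPM with PBS in Adam17ex mice, and 594, 947, 979.9 and 862 CPM with cerulein and 825, 644, 953 and 1559 CPM with PBS in WT mice. The 4 groups overlapped, and the spread inside a group exceeded the spread of the group means. The log2 fold change with cerulein was 0.25 ± 0.27 (edgeR adjusted p = 0.516) in Adam17ex and -0.22 ± 0.27 (edgeR adjusted p = 0.545) in WT. Hsp90b1, which encodes the chaperone GRP94, was not called in Adam17ex with -0.51 ± 0.24 (edgeR adjusted p = 0.107) and fell in WT with -1.49 ± 0.24 (edgeR adjusted p = 3.45e-05).

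Creld2 (chromosome 15, 88819646 to 88826683, plus strand), which encodes a secreted ER stress protein with disulfide isomerase activity, fell more than any other chaperone in WT. Creld2 had 43.3, 47.1, 45.6 and 50.4 CPM with cerulein and 125, 103, 56.3 and 60.6 CPM with PBS in Adam17ex mice, and 23.5, 47.6, 30.8 and 43.8 CPM with cerulein and 196, 264, 215 and 297 CPM with PBS in WT mice. All 4 WT PBS libraries stood above the other libraries, and the 2 cerulein groups overlapped. Its log2 fold change with cerulein was -0.84 ± 0.25 (edgeR adjusted p = 0.0152) in Adam17ex and -2.72 ± 0.24 (edgeR adjusted p = 1.03e-08) in WT, and the interaction was 1.88 ± 0.35 (edgeR adjusted p = 0.0022). The Creld2 call in Adam17ex did not hold without Adam17ex cerulein replicate 1 or Adam17ex PBS replicate 1 or 2, with female libraries alone or without Adam17ex PBS replicates 1, 2 and 3 together (log2 fold changes of -0.71 to -0.21, edgeR adjusted p = 0.0589 to 0.731). Under PBS, Creld2 was lower in Adam17ex than in WT, at -1.48 ± 0.26 on the log2 scale (edgeR adjusted p = 0.00694), a call that held in every alternative run.

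Dnajb9 (chromosome 12, 44205559 to 44210326, minus strand), which encodes the BiP co-chaperone ERdj4, rose in Adam17ex and was not called in WT. Dnajb9 had 92.8, 116, 92.4 and 57.2 CPM with cerulein and 36.4, 51.6, 28.1 and 33.3 CPM with PBS in Adam17ex mice, and 28.9, 39.9, 52.3 and 50.4 CPM with cerulein and 59.9, 59.6, 66.1 and 72.3 CPM with PBS in WT mice. Every Adam17ex cerulein library was above every Adam17ex PBS and WT cerulein library. Its log2 fold change was 1.29 ± 0.25 (edgeR adjusted p = 0.000485) in Adam17ex and -0.57 ± 0.23 (edgeR adjusted p = 0.0521) in WT, and the interaction was 1.86 ± 0.34 (edgeR adjusted p = 0.00191). Under cerulein it was higher in Adam17ex than in WT by 1.06 ± 0.23 on the log2 scale (edgeR adjusted p = 0.00428). The Dnajb9 genotype call did not hold without WT cerulein replicate 1 or with female libraries alone (log2 fold changes of 0.62 to 0.76, edgeR adjusted p = 0.0953 to 0.212). The Dnajb9 interaction call did not hold with female libraries alone (log2 fold change 1.32, edgeR adjusted p = 0.112).

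Dnajb11 (chromosome 16, 22857845 to 22879634, plus strand) encodes ERdj3, a co-chaperone that hands unfolded chains to BiP. Dnajb11 had 40.1, 59.5, 51.6 and 58.6 CPM with cerulein and 112, 85.2, 90.4 and 110.1 CPM with PBS in Adam17ex mice, and 28.9, 48.7, 30.1 and 38.9 CPM with cerulein and 179.8, 162, 196 and 225 CPM with PBS in WT mice. Both PBS groups lay above both cerulein groups, and the WT PBS libraries lay above those of Adam17ex. The log2 fold change with cerulein was -0.92 ± 0.20 (edgeR adjusted p = 0.00139) in Adam17ex and -2.38 ± 0.20 (edgeR adjusted p = 3.78e-09) in WT, with an interaction of 1.46 ± 0.28 (edgeR adjusted p = 0.00261). Under PBS, Dnajb11 was lower in Adam17ex than in WT, at -0.91 ± 0.21 on the log2 scale (edgeR adjusted p = 0.0331). The Dnajb11 PBS call did not hold without Adam17ex cerulein replicate 2 or 3, Adam17ex PBS replicate 2 or 3 or WT PBS replicate 1, 3 or 4, with female libraries alone or without Adam17ex PBS replicates 1, 2 and 3 together (log2 fold changes of -0.96 to -0.80, edgeR adjusted p = 0.0511 to 0.472). The Dnajb11 interaction call did not hold with female libraries alone or without Adam17ex PBS replicates 1, 2 and 3 together (log2 fold changes of 1.32 to 1.37, edgeR adjusted p = 0.0685 to 0.108).

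Hyou1 (chromosome 9, 44379490 to 44392369, plus strand) encodes GRP170, a nucleotide exchange factor for BiP. Hyou1 had 34.8, 27.5, 26.4 and 29.3 CPM with cerulein and 78.02, 38.7, 34.2 and 32.3 CPM with PBS in Adam17ex mice, and 10.9, 18.8, 10.03 and 20.7 CPM with cerulein and 78.8, 63.3, 79.8 and 95.6 CPM with PBS in WT mice. Adam17ex PBS replicate 1 stood apart from its group, at the level of the WT PBS libraries. Hyou1 fell in WT with -2.40 ± 0.27 (edgeR adjusted p = 3.47e-07) and was not called in Adam17ex, with -0.56 ± 0.28 (edgeR adjusted p = 0.131). Its interaction was 1.84 ± 0.39 (edgeR adjusted p = 0.00709), and under cerulein it was higher in Adam17ex by 0.98 ± 0.29 on the log2 scale (edgeR adjusted p = 0.0356). The Hyou1 genotype call did not hold without Adam17ex cerulein replicate 1, 2 or 4 or WT cerulein replicate 1 or 3, with library totals, with female libraries alone, with the replicate block or at equal depth (log2 fold changes of 0.74 to 1.16, edgeR adjusted p = 0.05 to 0.232).

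Among the other chaperones, Dnajc3, which encodes the co-chaperone P58IPK, averaged 326 ± 30.6 CPM with cerulein and 493 ± 145 CPM with PBS in Adam17ex mice (SD, n = 4). In WT mice it averaged 186 ± 31.8 CPM with cerulein and 692 ± 76.01 CPM with PBS. Dnajc3 fell with -0.59 ± 0.19 (edgeR adjusted p = 0.0226) in Adam17ex and -1.91 ± 0.20 (edgeR adjusted p = 1.03e-07) in WT, and its interaction was 1.31 ± 0.27 (edgeR adjusted p = 0.0058). The Dnajc3 call in Adam17ex did not hold without Adam17ex cerulein replicate 1, 3 or 4 or Adam17ex PBS replicate 1 or 4, with no filter on low counts, with female libraries alone or without Adam17ex PBS replicates 1, 2 and 3 together (log2 fold changes of -0.56 to -0.30, edgeR adjusted p = 0.0649 to 0.243). Sdf2l1, which encodes a partner of ERdj3, had an interaction of 1.47 ± 0.32 (edgeR adjusted p = 0.00762), and fell in both genotypes, with -0.995 ± 0.23 (edgeR adjusted p = 0.00209) in Adam17ex and -2.46 ± 0.22 (edgeR adjusted p = 1.26e-08) in WT. Uggt1, the glucosyltransferase that returns misfolded glycoproteins to calnexin, also fell in both, with -1.03 ± 0.23 (edgeR adjusted p = 0.00166) in Adam17ex and -1.60 ± 0.22 (edgeR adjusted p = 4.36e-06) in WT, and its interaction was not called. The Sdf2l1 call in Adam17ex did not hold with female libraries alone (log2 fold change -0.88, edgeR adjusted p = 0.0726). Between genotypes Sdf2l1 was not called under cerulein, at 0.57 ± 0.23 (edgeR adjusted p = 0.13), or under PBS, at -0.89 ± 0.23 (edgeR adjusted p = 0.0528). Every Adam17ex PBS library was below every WT PBS library for Sdf2l1. The Sdf2l1 interaction call did not hold with female libraries alone or without Adam17ex PBS replicates 1, 2 and 3 together (log2 fold changes of 1.34 to 1.55, edgeR adjusted p = 0.0892 to 0.0955). The Uggt1 call in Adam17ex did not hold without Adam17ex PBS replicates 1, 2 and 3 together (log2 fold change -0.91, edgeR adjusted p = 0.0884).

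The lectin chaperones calreticulin (Calr) and calnexin (Canx) had smaller values. Calr was not called in Adam17ex, at -0.13 ± 0.22, and fell in WT with -0.65 ± 0.22 (edgeR adjusted p = 0.0215). Canx was not called in Adam17ex, at -0.45 ± 0.21, and fell in WT with -0.66 ± 0.21 (edgeR adjusted p = 0.0146). The Calr call in WT did not hold without WT cerulein replicate 1 or 4 or WT PBS replicate 1 or 4, with library totals or with female libraries alone (log2 fold changes of -0.59 to -0.41, edgeR adjusted p = 0.0589 to 0.116). The Canx call in WT did not hold without WT cerulein replicate 1 or WT PBS replicate 4 or with library totals (log2 fold changes of -0.58 to -0.44, edgeR adjusted p = 0.052 to 0.086). Manf, a secreted stress factor, fell in WT with -1.03 ± 0.24 (edgeR adjusted p = 0.00173) and was at -0.07 ± 0.25 in Adam17ex. Manf overlaps Rbm15b on the same strand, with 216 UMIs counted for Rbm15b and 2775 for Manf in all, and how reads in the overlap were assigned is not known here.

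Of the folding enzymes, Fkbp11 (chromosome 15, 98724366 to 98728198, minus strand), an ER prolyl isomerase gene strongly expressed in secretory cells, had the largest interaction among the members. Fkbp11 had 262, 312, 240.1 and 377 CPM with cerulein and 283, 421, 285 and 301 CPM with PBS in Adam17ex mice, and 129, 134, 105 and 122 CPM with cerulein and 550.1, 621, 491 and 608 CPM with PBS in WT mice. The Adam17ex groups overlapped, while every WT cerulein library was below all other libraries. Fkbp11 was at -0.11 ± 0.18 (edgeR adjusted p = 0.686) with cerulein in Adam17ex and fell in WT with -2.17 ± 0.19 (edgeR adjusted p = 5.96e-09), and the interaction was 2.06 ± 0.25 (edgeR adjusted p = 5.16e-05). With cerulein, its level was higher in Adam17ex than in WT by 1.32 ± 0.18 on the log2 scale (edgeR adjusted p = 3.38e-05), which held in every alternative run. Fkbp2, another ER prolyl isomerase gene, was at -0.17 ± 0.19 (edgeR adjusted p = 0.532) in Adam17ex and fell in WT with -1.21 ± 0.20 (edgeR adjusted p = 3.82e-05), and its interaction was 1.04 ± 0.27 (edgeR adjusted p = 0.0257). The Fkbp2 interaction call did not hold without Adam17ex cerulein replicate 2, 3 or 4, Adam17ex PBS replicate 3, WT cerulein replicate 2 or 3 or WT PBS replicate 3, with library totals, with female libraries alone or without Adam17ex PBS replicates 1, 2 and 3 together (log2 fold changes of 0.79 to 1.06, edgeR adjusted p = 0.0503 to 0.283).

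Pdia6, which encodes the disulfide isomerase P5, averaged 190.1 ± 8.08 CPM with cerulein and 248 ± 34.6 CPM with PBS in Adam17ex mice. In WT mice it averaged 112 ± 24.96 CPM with cerulein and 363 ± 25.6 CPM with PBS. The Pdia6 interaction was 1.28 ± 0.23 (edgeR adjusted p = 0.00184), and under cerulein Pdia6 was higher in Adam17ex than in WT by 0.85 ± 0.17 on the log2 scale (edgeR adjusted p = 0.0018). P4hb, which encodes the founding member of the disulfide isomerase family, had an interaction of 0.94 ± 0.26 (edgeR adjusted p = 0.0357) and a genotype difference under cerulein of 0.73 ± 0.19 (edgeR adjusted p = 0.0126). The Pdia6 genotype call did not hold with female libraries alone (log2 fold change 0.62, edgeR adjusted p = 0.113). The Pdia6 interaction call did not hold with female libraries alone (log2 fold change 1.07, edgeR adjusted p = 0.0859). The P4hb interaction call did not hold without Adam17ex cerulein replicate 2 or 4, Adam17ex PBS replicate 2, 3 or 4, WT cerulein replicate 1, 2 or 3 or WT PBS replicate 1 or 4, with library totals, with female libraries alone, at equal depth, without Adam17ex PBS replicates 1, 2 and 3 together or without WT PBS replicates 1 and 2 together (log2 fold changes of 0.77 to 1.21, edgeR adjusted p = 0.0511 to 0.107). The P4hb genotype call did not hold without Adam17ex cerulein replicate 4 or WT cerulein replicate 1 or 3, with library totals or with female libraries alone (log2 fold changes of 0.48 to 0.80, edgeR adjusted p = 0.0516 to 0.0754).

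Pdia5 (chromosome 16, 35397312 to 35490873, minus strand), a disulfide isomerase gene, was the folding enzyme that rose in WT. Pdia5 had 8.44, 11.6, 15.6 and 11.6 CPM with cerulein and 2.60, 10.3, 0 and 7.07 CPM with PBS in Adam17ex mice, and 9.95, 12.2, 15.04 and 8.27 CPM with cerulein and 5.88, 8.19, 3.15 and 2.45 CPM with PBS in WT mice. No library had more than 21 UMIs, 1 library had none, and the Adam17ex groups overlapped. The log2 fold change was 1.17 ± 0.52 (edgeR adjusted p = 0.0928) in Adam17ex and 1.16 ± 0.46 (edgeR adjusted p = 0.0447) in WT. The Pdia5 call in WT did not hold without WT cerulein replicate 1, 2 or 3 or WT PBS replicate 1, 3 or 4 (log2 fold changes of 1.00 to 1.23, edgeR adjusted p = 0.0566 to 0.145).

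Of the remaining 8 folding enzymes, Txndc11 and Pdia4 fell in both genotypes. Txndc11, a thioredoxin-domain gene, was at -1.21 ± 0.25 (edgeR adjusted p = 0.000766) in Adam17ex and -1.98 ± 0.24 (edgeR adjusted p = 9.45e-07) in WT, and Pdia4, a disulfide isomerase gene, at -0.99 ± 0.29 (edgeR adjusted p = 0.0127) in Adam17ex and -1.80 ± 0.28 (edgeR adjusted p = 1.89e-05) in WT. The Pdia4 call in Adam17ex did not hold without Adam17ex cerulein replicate 4 or Adam17ex PBS replicate 1, with female libraries alone or without Adam17ex PBS replicates 1, 2 and 3 together (log2 fold changes of -0.89 to -0.25, edgeR adjusted p = 0.0814 to 0.755). Pdia2 (the pancreatic disulfide isomerase), Pdia3, Txndc5, Erp44 and Erp29 fell in WT by log2 fold changes of -0.51 (Pdia3) to -0.83 (Erp44) and were not called in Adam17ex. The Pdia3 call did not hold without Adam17ex cerulein replicate 2 or 4, Adam17ex PBS replicate 1 or 3, WT cerulein replicate 1, 2, 3 or 4 or WT PBS replicate 1, 2, 3 or 4, with RLE factors, with library totals, with scaling without digestive enzymes, with no filter on low counts, with female libraries alone, at equal depth or without WT PBS replicates 1 and 2 together (log2 fold changes of -0.56 to -0.29, edgeR adjusted p = 0.0507 to 0.25), nor in DESeq2 (log2 fold change -0.48, adjusted p = 0.0609). The Pdia2 call did not hold without WT cerulein replicate 3, with library totals, with no filter on low counts or without WT PBS replicates 1 and 2 together (log2 fold changes of -0.55 to -0.36, edgeR adjusted p = 0.0605 to 0.0798). The Erp29 call did not hold without WT cerulein replicate 1 or 4 or WT PBS replicate 4, with library totals, with no filter on low counts, with female libraries alone or at equal depth (log2 fold changes of -0.53 to -0.33, edgeR adjusted p = 0.0567 to 0.196). The Txndc5 call did not hold with library totals, with no filter on low counts, with female libraries alone or at equal depth (log2 fold changes of -0.60 to -0.41, edgeR adjusted p = 0.0521 to 0.151). The Erp44 call did not hold at equal depth (log2 fold change -0.48, edgeR adjusted p = 0.06). Dnajc10, which encodes the disulfide reductase ERdj5, was at 0.25 ± 0.23 (edgeR adjusted p = 0.481) in Adam17ex and -0.18 ± 0.21 (edgeR adjusted p = 0.527) in WT.

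**Figure D3:**
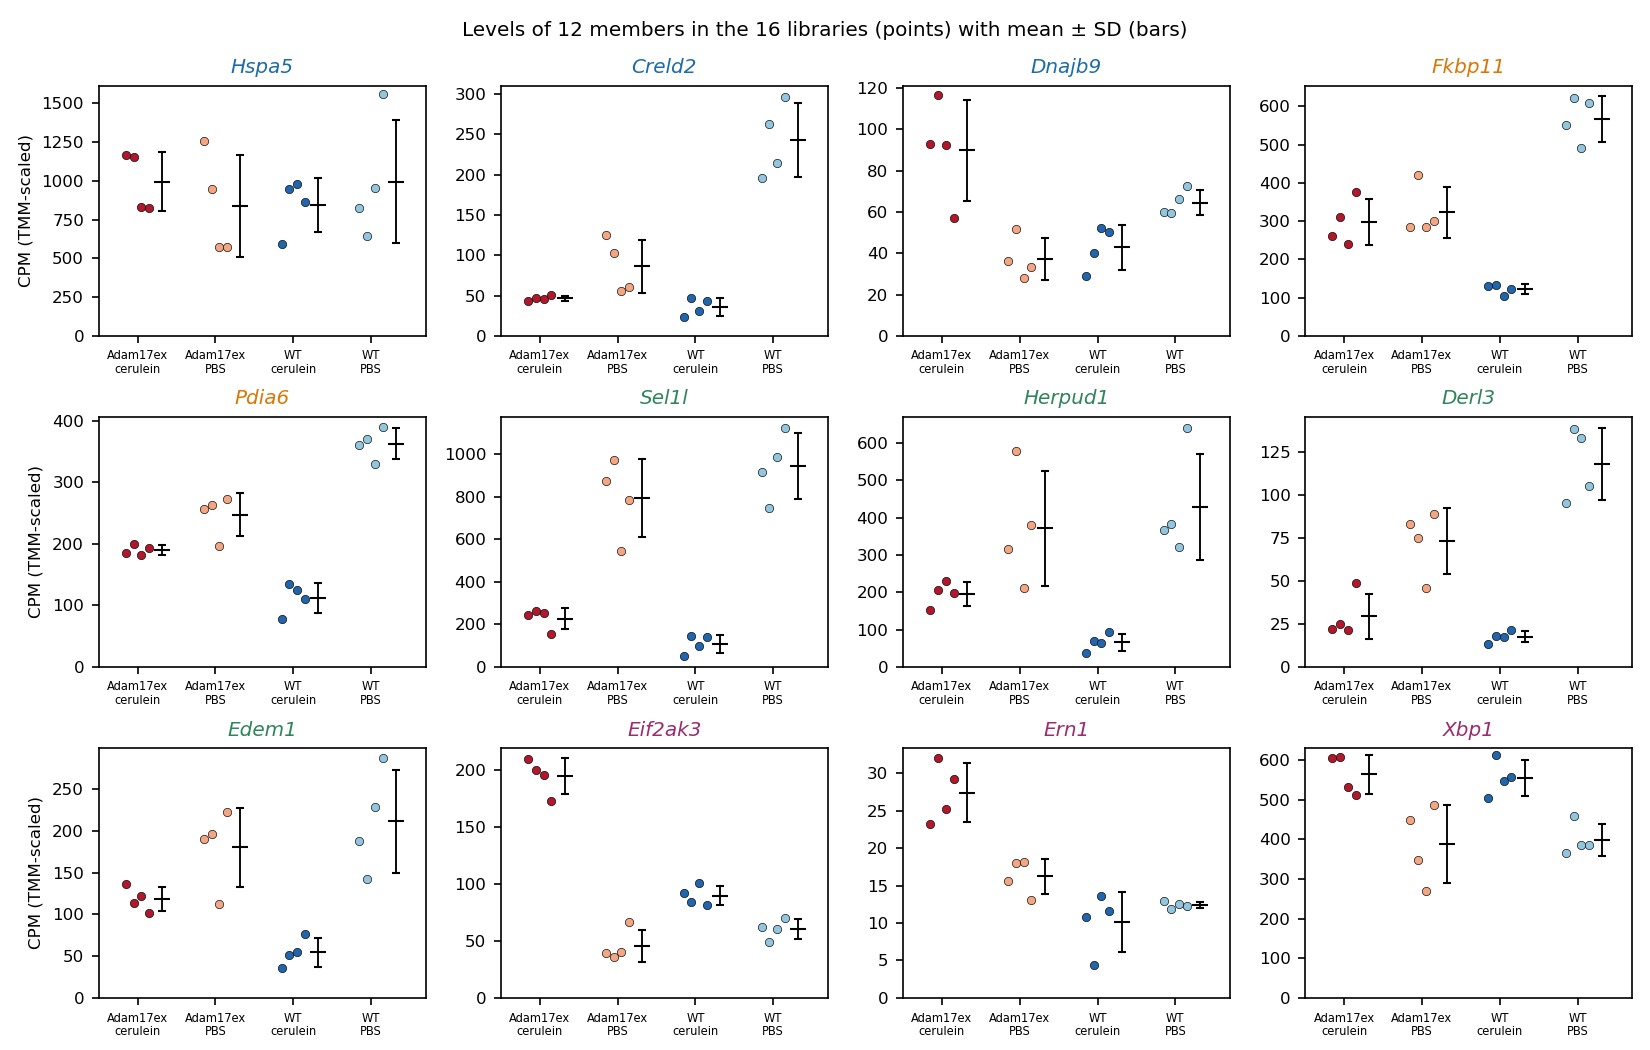
CPM of 12 members in the 16 libraries, 1 panel per gene with the gene name coloured by role and its own vertical axis from 0. Points are libraries and bars are the mean ± SD of 4; in the Fkbp11 panel the 4 WT cerulein points lie between 105 and 134 CPM, below every other point, and in the Eif2ak3 panel the 4 Adam17ex cerulein points lie between 173 and 210.0 CPM, above every other point.

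The degradation genes had the lowest median of the 4 roles in both genotypes, -0.84 in Adam17ex and -1.85 in WT. Together they took 0.0824% of UMIs in Adam17ex cerulein and 0.173% in Adam17ex PBS libraries, and 0.0531% in WT cerulein and 0.219% in WT PBS libraries. Sel1l (chromosome 12, 91806043 to 91849157, minus strand) encodes the adaptor that ties substrates to the ubiquitin ligase HRD1, and it fell further than any other member in WT. Sel1l had 242, 260.4, 253 and 153 CPM with cerulein and 871, 973, 542 and 786 CPM with PBS in Adam17ex mice, and 53.4, 143, 95.99 and 141 CPM with cerulein and 914, 748, 984 and 1120.0 CPM with PBS in WT mice. No cerulein library reached the lowest PBS library in either genotype. Sel1l fell with -1.78 ± 0.25 (edgeR adjusted p = 1.67e-05) in Adam17ex and -3.09 ± 0.27 (edgeR adjusted p = 6.33e-09) in WT. Its interaction was 1.31 ± 0.35 (edgeR adjusted p = 0.0278), and under cerulein it was higher in Adam17ex than in WT by 1.18 ± 0.27 on the log2 scale (edgeR adjusted p = 0.00608). The Sel1l genotype call did not hold without WT cerulein replicate 1 or with female libraries alone (log2 fold changes of 0.63 to 0.80, edgeR adjusted p = 0.0979 to 0.23). The Sel1l interaction call did not hold without Adam17ex cerulein replicate 2 or 3, Adam17ex PBS replicate 3, WT cerulein replicate 1 or 3 or WT PBS replicate 4, with female libraries alone, at equal depth or without Adam17ex PBS replicates 1, 2 and 3 together (log2 fold changes of 0.76 to 1.43, edgeR adjusted p = 0.0555 to 0.371).

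Herpud1 (chromosome 8, 94386438 to 94395377, plus strand) encodes a membrane protein that assembles the HRD1 complex, and its promoter window with ERSE-II is shown above. Herpud1 had 152, 207, 229 and 197 CPM with cerulein and 315, 578, 211 and 381 CPM with PBS in Adam17ex mice, and 36.2, 69.8, 63.8 and 93.4 CPM with cerulein and 368, 384, 322 and 639.6 CPM with PBS in WT mice. Every Adam17ex cerulein library was above every WT cerulein library, and the PBS groups overlapped. Herpud1 fell with -0.84 ± 0.26 (edgeR adjusted p = 0.0191) in Adam17ex and -2.62 ± 0.28 (edgeR adjusted p = 1.21e-07) in WT, with an interaction of 1.79 ± 0.37 (edgeR adjusted p = 0.0056). Under cerulein it was higher in Adam17ex by 1.75 ± 0.29 on the log2 scale (edgeR adjusted p = 0.000262), the largest genotype difference among the members. The Herpud1 call in Adam17ex did not hold without Adam17ex cerulein replicate 1 or 4 or Adam17ex PBS replicate 1 or 2 or without Adam17ex PBS replicates 1, 2 and 3 together (log2 fold changes of -0.86 to -0.56, edgeR adjusted p = 0.0588 to 0.151). The Herpud1 interaction call did not hold with female libraries alone or without Adam17ex PBS replicates 1, 2 and 3 together (log2 fold changes of 1.08 to 1.82, edgeR adjusted p = 0.0605 to 0.252).

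Derl3 (chromosome 10, 75893413 to 75895941, plus strand) encodes a derlin, a channel component of the retrotranslocation machinery. Derl3 had 22.2, 24.9, 21.6 and 49.04 CPM with cerulein and 83.2, 74.9, 46.2 and 88.9 CPM with PBS in Adam17ex mice, and 13.6, 17.7, 17.2 and 21.5 CPM with cerulein and 95.2, 139, 133 and 105 CPM with PBS in WT mice. Adam17ex cerulein replicate 4 stood apart from its group, and the other 3 libraries of that group lay just above the WT cerulein libraries. Derl3 fell with -1.29 ± 0.24 (edgeR adjusted p = 0.000328) in Adam17ex and -2.64 ± 0.24 (edgeR adjusted p = 1.22e-08) in WT, with an interaction of 1.35 ± 0.34 (edgeR adjusted p = 0.0193) and a genotype difference under cerulein of 0.89 ± 0.26 (edgeR adjusted p = 0.0309). The Derl3 interaction call did not hold without Adam17ex cerulein replicate 2 or 4 or WT cerulein replicate 3, with library totals, with female libraries alone, at equal depth or without Adam17ex PBS replicates 1, 2 and 3 together (log2 fold changes of 1.09 to 1.49, edgeR adjusted p = 0.0515 to 0.121). The Derl3 genotype call did not hold without Adam17ex cerulein replicate 2 or 4 or WT cerulein replicate 1, 2, 3 or 4, with library totals, with no sex covariate, with female libraries alone, with the replicate block or at equal depth (log2 fold changes of 0.52 to 0.96, edgeR adjusted p = 0.0511 to 0.299). The other derlin genes, Derl1 and Derl2, were not called in either genotype, with 0.50 ± 0.22 and -0.15 ± 0.21 in Adam17ex and -0.39 ± 0.20 and -0.35 ± 0.19 in WT.

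Edem1 (chromosome 6, 108828641 to 108859356, plus strand) encodes a mannosidase-like protein that marks misfolded glycoproteins for disposal. Edem1 had 136, 114, 122 and 102 CPM with cerulein and 189.9, 196, 113 and 223 CPM with PBS in Adam17ex mice, and 35.3, 50.9, 55.2 and 76.9 CPM with cerulein and 188, 142, 229 and 287 CPM with PBS in WT mice. The Adam17ex cerulein libraries lay above the WT cerulein libraries. Edem1 was at -0.59 ± 0.23 (edgeR adjusted p = 0.0523) with cerulein in Adam17ex, fell in WT with -1.87 ± 0.23 (edgeR adjusted p = 1.22e-06), and had an interaction of 1.28 ± 0.32 (edgeR adjusted p = 0.0182). With cerulein, its level was higher in Adam17ex by 1.23 ± 0.24 on the log2 scale (edgeR adjusted p = 0.00147). The Edem1 genotype call did not hold with female libraries alone (log2 fold change 0.95, edgeR adjusted p = 0.0762). The Edem1 interaction call did not hold without Adam17ex cerulein replicate 2 or 3, with library totals, with female libraries alone or without Adam17ex PBS replicates 1, 2 and 3 together (log2 fold changes of 0.97 to 1.23, edgeR adjusted p = 0.052 to 0.286).

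Os9 (chromosome 10, 127095650 to 127121131, minus strand) encodes a lectin that delivers glycoproteins to SEL1L. Os9 had 116, 91.5, 87.6 and 70.8 CPM with cerulein and 333, 196, 149 and 206 CPM with PBS in Adam17ex mice, and 65.1, 77.5, 70.2 and 71.9 CPM with cerulein and 248, 221, 287 and 267 CPM with PBS in WT mice. Cerulein libraries lay below PBS libraries in both genotypes. Os9 fell with -1.27 ± 0.21 (edgeR adjusted p = 0.000104) in Adam17ex and -1.85 ± 0.21 (edgeR adjusted p = 4.11e-07) in WT, and its interaction of 0.58 ± 0.30 (edgeR adjusted p = 0.256) was not called. Edem2 likewise fell in both, with -1.02 ± 0.21 (edgeR adjusted p = 0.00103) in Adam17ex and -1.59 ± 0.22 (edgeR adjusted p = 5.44e-06) in WT. Syvn1, which encodes HRD1 itself, was at 0.16 ± 0.33 (edgeR adjusted p = 0.745) in Adam17ex, fell in WT with -1.38 ± 0.31 (edgeR adjusted p = 0.00104) and had an interaction of 1.55 ± 0.45 (edgeR adjusted p = 0.0434). The Syvn1 interaction call did not hold without Adam17ex cerulein replicate 2 or 4, Adam17ex PBS replicate 2, 3 or 4, WT cerulein replicate 1, 2, 3 or 4 or WT PBS replicate 3 or 4, with library totals, with a mean count of at least 20, with female libraries alone, at equal depth or without Adam17ex PBS replicates 1, 2 and 3 together (log2 fold changes of 1.17 to 2.04, edgeR adjusted p = 0.051 to 0.254). Syvn1 overlaps Mrpl49 on the opposite strand.

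The sensors and transcription factors moved in both directions. Eif2ak3 (chromosome 6, 70844515 to 70905245, plus strand), which encodes the sensor kinase PERK, rose in both genotypes and more in Adam17ex. Eif2ak3 had 209.9, 199.9, 196 and 173 CPM with cerulein and 39.01, 36.1, 40.2 and 66.7 CPM with PBS in Adam17ex mice, and 92.3, 84.2, 101 and 81.8 CPM with cerulein and 62.3, 49.1, 60.9 and 69.8 CPM with PBS in WT mice. The 4 Adam17ex cerulein libraries exceeded all others, and Adam17ex PBS replicate 4 stood apart from its group. Eif2ak3 rose with 2.03 ± 0.20 (edgeR adjusted p = 1.03e-07) in Adam17ex and 0.60 ± 0.19 (edgeR adjusted p = 0.0135) in WT, and the interaction was 1.43 ± 0.27 (edgeR adjusted p = 0.0025). Under cerulein it was higher in Adam17ex by 1.13 ± 0.18 on the log2 scale (edgeR adjusted p = 0.000182). The Eif2ak3 call in WT did not hold without WT PBS replicates 1 and 2 together (log2 fold change 0.50, edgeR adjusted p = 0.125). The Eif2ak3 interaction call did not hold with female libraries alone or without Adam17ex PBS replicates 1, 2 and 3 together (log2 fold changes of 0.97 to 1.26, edgeR adjusted p = 0.112 to 0.143). Eif2ak3 contains the small gene Gm23346 on the same strand, with 195 UMIs against 1608 for Eif2ak3.

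Ern1 (chromosome 11, 106394650 to 106487852, minus strand) encodes the sensor IRE1, which splices Xbp1 mRNA. Ern1 had 23.2, 31.99, 25.2 and 29.3 CPM with cerulein and 15.6, 18.1, 18.1 and 13.1 CPM with PBS in Adam17ex mice, and 10.9, 4.43, 13.6 and 11.6 CPM with cerulein and 12.9, 11.9, 12.6 and 12.3 CPM with PBS in WT mice. Every Adam17ex cerulein library was above every WT cerulein library, and WT cerulein and WT PBS libraries overlapped. Every Adam17ex PBS library was also above every WT PBS library. That difference under PBS was not called, at 0.29 ± 0.34 on the log2 scale (edgeR adjusted p = 0.732). Ern1 rose in Adam17ex with 0.80 ± 0.28 (edgeR adjusted p = 0.0363) and was at -0.27 ± 0.30 (edgeR adjusted p = 0.521) in WT, with an interaction of 1.07 ± 0.42 (edgeR adjusted p = 0.127), which was not called. With cerulein, its level was higher in Adam17ex by 1.36 ± 0.27 on the log2 scale (edgeR adjusted p = 0.00159). The Ern1 call in Adam17ex did not hold without Adam17ex cerulein replicate 2 or 4 or Adam17ex PBS replicate 1 or 4, with library totals, with female libraries alone or without Adam17ex PBS replicates 1, 2 and 3 together (log2 fold changes of 0.75 to 1.03, edgeR adjusted p = 0.0526 to 0.17), nor in DESeq2 (log2 fold change 0.81, adjusted p = 0.0849).

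Xbp1 (chromosome 11, 5520659 to 5525893, plus strand), the transcription factor gene downstream of IRE1, rose in both genotypes. Xbp1 had 604, 608, 532 and 512 CPM with cerulein and 449.9, 349, 269 and 488 CPM with PBS in Adam17ex mice, and 504, 614, 548 and 557 CPM with cerulein and 367, 459, 386 and 385 CPM with PBS in WT mice. Cerulein libraries lay above PBS libraries in each genotype, and the 2 cerulein groups overlapped. Xbp1 rose with 0.54 ± 0.18 (edgeR adjusted p = 0.0256) in Adam17ex and 0.50 ± 0.18 (edgeR adjusted p = 0.0281) in WT, and its interaction was 0.03 ± 0.25 (edgeR adjusted p = 0.96). The Xbp1 call in Adam17ex did not hold without Adam17ex cerulein replicate 2 or Adam17ex PBS replicate 2 or 3, with female libraries alone or without Adam17ex PBS replicates 1, 2 and 3 together (log2 fold changes of 0.25 to 0.51, edgeR adjusted p = 0.0617 to 0.559). The Xbp1 call in WT did not hold without WT cerulein replicate 2 or WT PBS replicate 1 or 4, with no filter on low counts or without WT PBS replicates 1 and 2 together (log2 fold changes of 0.46 to 0.57, edgeR adjusted p = 0.0526 to 0.0743).

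Atf6 (chromosome 1, 170704674 to 170867771, minus strand) encodes the membrane-bound factor that is cleaved in the Golgi to activate chaperone genes. Atf6 had 52.7, 59.5, 52.8 and 42.2 CPM with cerulein and 59.8, 74.9, 54.2 and 49.5 CPM with PBS in Adam17ex mice, and 18.99, 23.3, 35.8 and 31.4 CPM with cerulein and 72.9, 70.7, 55.6 and 53.9 CPM with PBS in WT mice. The 4 WT cerulein libraries were the lowest of all. Atf6 was at -0.17 ± 0.22 (edgeR adjusted p = 0.579) in Adam17ex and fell in WT with -1.18 ± 0.22 (edgeR adjusted p = 0.000136), and its interaction was 1.00 ± 0.30 (edgeR adjusted p = 0.0507). Under cerulein it was higher in Adam17ex by 0.91 ± 0.22 on the log2 scale (edgeR adjusted p = 0.00887). The Atf6 genotype call did not hold without WT cerulein replicate 1, with library totals or with female libraries alone (log2 fold changes of 0.62 to 0.67, edgeR adjusted p = 0.0852 to 0.262).

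Creb3l1 (chromosome 2, 91982328 to 92024502, minus strand) encodes OASIS, a transmembrane factor related to ATF6. Creb3l1 had 5.27, 4.44, 7.20 and 3.41 CPM with cerulein and 31.2, 12.9, 16.1 and 13.1 CPM with PBS in Adam17ex mice, and 1.81, 6.65, 5.01 and 2.48 CPM with cerulein and 17.6, 11.2, 15.7 and 14.7 CPM with PBS in WT mice. Cerulein libraries lay below PBS libraries in both genotypes, at a few UMIs each. Creb3l1 fell with -1.81 ± 0.42 (edgeR adjusted p = 0.00237) in Adam17ex and -1.94 ± 0.41 (edgeR adjusted p = 0.000626) in WT, and its interaction was 0.13 ± 0.58 (edgeR adjusted p = 0.928). The Creb3l1 call in Adam17ex did not hold with female libraries alone or without Adam17ex PBS replicates 1, 2 and 3 together (log2 fold changes of -1.57 to -1.33, edgeR adjusted p = 0.0696 to 0.173).

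Between genotypes under cerulein, 14 of the 39 members were higher in Adam17ex and 0 were lower in edgeR's test. Over all tested genes 5.85% were called higher and 3.85% lower. DESeq2 called 13 higher and 0 lower. At an unadjusted p under 0.05, edgeR gave 20 higher and 0 lower, against 13% and 10.6% of all tested genes. The median of the members was 0.48, against 0.01 over all genes, and the estimate was above 0 for 37 of 39. The 14 were 3 chaperones (Hyou1, Dnajb9, Dnajc3), 3 folding enzymes (P4hb, Pdia6, Fkbp11), 5 degradation genes (Herpud1, Sel1l, Edem1, Edem2, Derl3) and 3 sensors (Ern1, Eif2ak3, Atf6). WT cerulein replicate 1, the male of its group, was the lowest of the 4 WT cerulein libraries for 7 of the 14. Without it 7 members were called, and 402 of 8602 genes over all. The main run called 482 of 8236 genes higher and 317 lower. The Edem2 call did not hold without Adam17ex cerulein replicate 1, 2 or 4, WT cerulein replicate 2, 3 or 4 or WT PBS replicate 1, with library totals, with a mean count of at least 20, with no sex covariate, with female libraries alone or at equal depth (log2 fold changes of 0.46 to 0.98, edgeR adjusted p = 0.0503 to 0.241), nor in DESeq2 (log2 fold change 0.69, adjusted p = 0.0548). The Dnajc3 call did not hold without Adam17ex cerulein replicate 4 or WT cerulein replicate 1 or 4, with library totals or with female libraries alone (log2 fold changes of 0.55 to 0.76, edgeR adjusted p = 0.0506 to 0.137). Leaving out Adam17ex cerulein replicate 4 brought the count to 9, and the calls over all genes to 549 of 8614. With library totals and no scaling factor, 8 members and 844 of all 8236 genes were called. The median over all genes moved to -0.24 and the median of the members to 0.23. With female libraries alone, 4 members and 273 of 8871 genes were called.

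Under PBS the genotype difference pointed the other way, at lower values. It was below 0 for 33 of 39 members and for 46.8% of all tested genes, with a median of -0.29 against 0.03. In edgeR's test at an adjusted p under 0.05, 2 members were called lower (Creld2 and Dnajb11) and 0 higher, and 0.729% of all tested genes were called lower and 0.631% higher. DESeq2 called 4 members lower and 0 higher. At an unadjusted p under 0.05, edgeR gave 13 lower and 0 higher, against 8.72% and 7.84% of all tested genes. The 12 chaperones had the lowest median of the roles, at -0.69, and the sensors were at 0.02. This comparison rests on the shallow Adam17ex PBS libraries, and without replicates 1, 2 and 3 of that group 1 member was called. Leaving out Adam17ex cerulein replicate 4 or Adam17ex PBS replicate 1 gave 4 calls, and leaving out any of the 7 single libraries named for Dnajb11 gave 1. The comparisons under cerulein, under PBS and of the interaction share libraries, so their counts are not independent.

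**Figure D4:**
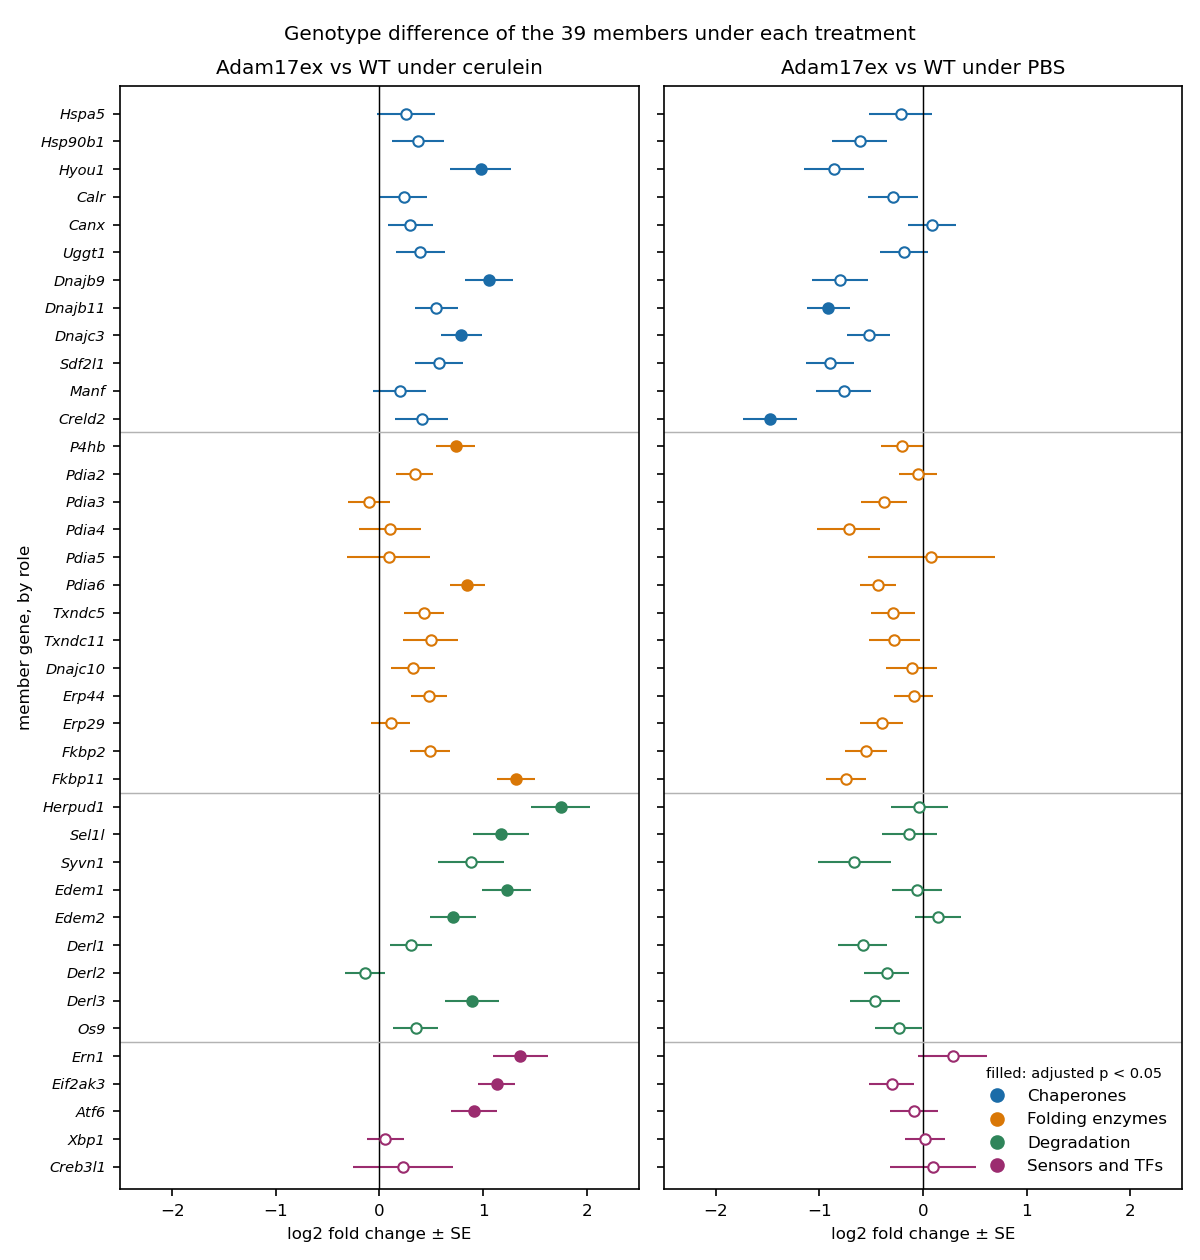
Log2 fold change between Adam17ex and WT mice, with SE bars, for each of the 39 members (rows, by role) under cerulein (left) and under PBS (right). Filled points passed the test; under cerulein 37 of 39 points lie above 0 and 14 are filled, and under PBS 33 lie below 0 and 2 are filled.

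Members whose promoter held ERSE or ERSE-II before the start were compared as a description with those without. The shares of all tested genes called with cerulein were 16.2% lower and 14.1% higher in Adam17ex, and 21.3% and 19.8% in WT. The interaction was called higher for 3.75% and lower for 2.27% of all tested genes. Of the 10 with an element, 4 fell in Adam17ex and 9 in WT with cerulein, with medians of -0.48 and -1.57, and 6 had a called interaction (median 1.30). Of the 23 members with a promoter and neither element before the start, 8 fell and 4 rose in Adam17ex, 16 fell and 3 rose in WT, and 9 had a called interaction (median 0.77). Dnajb11 was counted among these 23, although its promoter of 300 bases held an ERSE-II that did not lie wholly before the start. It fell in both genotypes and its interaction, 1.46, was called. In WT the values of members with an element ran from -2.72 (Creld2) to -0.22 (Hspa5), and the ranges with and without an element overlapped. Fkbp11 and Sel1l held neither element in this window.

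Other genes of the pathway came from lists of ER folding and degradation genes that are not members. Of 24 tested genes in the list of other folding genes, 8 fell and 1 rose in Adam17ex, and 14 fell and 1 rose in WT. Of 25 tested genes in the list of other degradation genes, 4 fell and 2 rose in Adam17ex, and 8 fell and 3 rose in WT. The shares over all tested genes were 16.2% lower and 14.1% higher in Adam17ex, and 21.3% and 19.8% in WT. Called lower were 33.3% of the other folding genes in Adam17ex and 58.3% in WT. For the other degradation genes these were 16% in Adam17ex, near the share over all genes, and 32% in WT. Ero1lb, which encodes the ER oxidase that feeds oxidising power to disulfide isomerases in secretory cells, was at 0.11 ± 0.23 (edgeR adjusted p = 0.737) in Adam17ex and fell in WT with -2.42 ± 0.23 (edgeR adjusted p = 3.06e-08). The Ero1lb interaction was 2.54 ± 0.32 (edgeR adjusted p = 6.41e-05), and Ero1lb was lower in Adam17ex under PBS, at -1.22 ± 0.24 on the log2 scale (edgeR adjusted p = 0.018).

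Ppic, a cyclophilin gene, fell with -0.92 ± 0.27 in Adam17ex and -2.51 ± 0.31 in WT and was higher in Adam17ex under cerulein by 2.24 ± 0.31 on the log2 scale (edgeR adjusted p = 4.44e-05). Erlec1, which encodes a lectin of the HRD1 complex, was higher in Adam17ex under cerulein by 1.56 ± 0.22 on the log2 scale (edgeR adjusted p = 5.57e-05). Selenom, a selenoprotein gene of the ER, fell with -1.52 ± 0.30 in Adam17ex and -2.52 ± 0.32 in WT. Ero1l, the other ER oxidase gene, rose in Adam17ex with 1.60 ± 0.28 (edgeR adjusted p = 0.000211) and was at 0.60 ± 0.27 (edgeR adjusted p = 0.0774) in WT. Among genes that rose in WT was Ube2j2, a ubiquitin-conjugating enzyme gene of the ER membrane, with 0.62 ± 0.22 in Adam17ex and 0.97 ± 0.20 in WT, both called. Between genotypes under cerulein, 6 of the 24 other folding genes (25%) and 3 of the 25 other degradation genes (12%) were higher in Adam17ex. The share over all tested genes was 5.85%.

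Atf4 and genes that ATF4 activates were also examined. Of these 7 tested genes, 6 rose in Adam17ex and 1 rose in WT, against 14.1% and 19.8% of all tested genes. Under cerulein 5 of the 7 were higher in Adam17ex than in WT, against 5.85% of all tested genes. Which sensor or kinase acted on them was not tested. Trib3, a pseudokinase gene, rose with 2.59 ± 0.33 (edgeR adjusted p = 3.93e-06) in Adam17ex and 1.72 ± 0.44 (edgeR adjusted p = 0.00317) in WT. Atf4 itself rose with 1.11 ± 0.20 (edgeR adjusted p = 0.00028) in Adam17ex and was at 0.15 ± 0.20 (edgeR adjusted p = 0.586) in WT, and its interaction was 0.96 ± 0.29 (edgeR adjusted p = 0.0468). Chac1, a glutathione-degrading enzyme gene, and Sesn2, a stress-induced metabolic regulator gene, had called interactions of 1.89 ± 0.54 (edgeR adjusted p = 0.0401) and 2.38 ± 0.67 (edgeR adjusted p = 0.0367). The interactions of the other 4 genes were not called, at 0.88 ± 0.64 (edgeR adjusted p = 0.482) for Trib3, 1.63 ± 0.56 (edgeR adjusted p = 0.0865) for Ppp1r15a, 0.37 ± 0.27 (edgeR adjusted p = 0.459) for Asns and 0.43 ± 0.73 (edgeR adjusted p = 0.778) for Ddit3. Ddit3, which encodes the factor CHOP, was not called with cerulein in either genotype, at -0.22 ± 0.51 (edgeR adjusted p = 0.77) in Adam17ex and -0.65 ± 0.53 (edgeR adjusted p = 0.344) in WT. Of 6 tested genes in the list of other sensors, 1 fell in Adam17ex with cerulein (16.7%, against 16.2% of all tested genes). In that list 1 gene was higher in Adam17ex than in WT under cerulein (16.7%, against 5.85%).

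Cell type markers moved in some comparisons. With cerulein, 16.2% of all tested genes were called lower and 14.1% higher in Adam17ex, and 21.3% and 19.8% in WT. Between genotypes under cerulein, 5.85% of all tested genes were called higher in Adam17ex. Of the 22 acinar genes, 1 fell in Adam17ex and 10 fell in WT with cerulein, and 6 were higher in Adam17ex than in WT under cerulein. The acinar interaction was above 0 for 21 of the 22, with a median of 0.50. It was called higher for 2 and lower for 0, against 3.75% and 2.27% of all tested genes. At an unadjusted p under 0.05, edgeR gave 10 acinar genes higher and 0 lower for the interaction. Of 7 tested duct markers, 2 rose in Adam17ex, and 6 rose and 1 fell in WT; their summed level was 523 to 594 CPM in Adam17ex cerulein, 386 to 473 in Adam17ex PBS, 1276 to 1605 in WT cerulein and 373 to 420.0 in WT PBS libraries. For the duct markers the interaction was called lower for 5 of the 7 and higher for 0. Plasma and B cells also have a large ER. The summed level of 15 of their markers was 12.7 to 208 CPM in Adam17ex cerulein, 36.4 to 870.0 in Adam17ex PBS, 10.0 to 63.1 in WT cerulein and 30.4 to 1248 in WT PBS libraries. Of 5 tested, 4 fell in Adam17ex and 5 in WT with cerulein in edgeR's test, and 1 and 4 in DESeq2. The libraries of the 2 Adam17ex groups overlapped for all 5. Tnfrsf17 and Cd79a were at 0 in Adam17ex cerulein, Iglc2, Tnfrsf17, Cd79a, Cd79b and Ms4a1 in WT cerulein, and Tnfrsf17 in WT PBS libraries. Without WT PBS replicates 1 and 2, which held 745 and 1248 CPM of these markers against 30.4 and 49.0 in the other WT PBS libraries, 28 members fell and 1 rose in WT. Islet cells have a large ER as well. With cerulein in Adam17ex, 8 of 10 islet genes fell in edgeR's test and 5 in DESeq2. The libraries of the 2 Adam17ex groups overlapped for all 10. In WT 0 of the 10 were called in edgeR's test and 0 in DESeq2, with log2 fold changes of -0.95 to 0.11 and 1 lower at an unadjusted p under 0.05. The interaction was called for 0 of the 10 in both tools, with 1 lower at an unadjusted p under 0.05. Their summed level was 1773 to 6216 CPM in Adam17ex cerulein, 5106 to 22254 in Adam17ex PBS, 1343 to 9222 in WT cerulein and 4310 to 13388 in WT PBS libraries.

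Markers of other cells of the tissue were also examined, beside the 16.2% of all tested genes called lower in Adam17ex and 21.3% in WT. Of 5 tested adipocyte markers, 4 fell in Adam17ex and 5 in WT with cerulein in edgeR's test, with medians of -2.53 and -4.80. DESeq2 called 2 of them lower in Adam17ex and 4 in WT. The summed level of the 7 listed was 83.8 to 606 CPM in Adam17ex cerulein, 203 to 1457 in Adam17ex PBS, 38.7 to 77.5 in WT cerulein and 61.9 to 721 in WT PBS libraries. Lep was at 0 in Adam17ex cerulein, and Plin1 and Lep in WT cerulein libraries. Of 6 tested fibroblast markers, 5 fell in Adam17ex and 1 in WT, with summed levels of 347 to 510.3 CPM in Adam17ex cerulein, 471 to 1429 in Adam17ex PBS, 217 to 319 in WT cerulein and 211 to 558 in WT PBS libraries. Of 6 tested macrophage markers, 4 fell in Adam17ex and 1 in WT, with summed levels of 122 to 203 CPM in Adam17ex cerulein, 153 to 1069 in Adam17ex PBS, 132 to 213 in WT cerulein and 72.4 to 396 in WT PBS libraries. Of 5 tested endothelial markers, 1 fell in each genotype. In WT the fibroblast, macrophage and endothelial markers called lower by edgeR were 16.7%, 16.7% and 20% of those tested, below the share over all genes. DESeq2 called 4 fibroblast, 4 macrophage and 1 endothelial marker lower in Adam17ex, and 1, 0 and 0 in WT. Adam17ex PBS replicate 3, one of the shallow libraries, held the highest adipocyte, fibroblast and macrophage sums of all 16 libraries. The part of these cells and of acinar, duct and islet cells in the members' changes was not tested.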

How the data were processed

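RNA of 16 snap-frozen pancreas samples was extracted with TRIzol, and 30 ng of each was primed on the poly(A) tail and sequenced in pooled libraries with a UMI of 10 bp and a sense read of 101 bp, per the labels' protocols. The authors deposited raw counts, in whole UMIs per gene. The submitters' processing notes name limma 3.50.0, edgeR 3.36.0, R 4.1.2, GRCm38 and mm10, and which aligner and counter were used is not stated in them. Depth was 455547 to 1476159 UMIs per library; the SEs reflect the spread between libraries as well as counting error. No library was counted as a repeat of another, since libraries of 1 group differed beyond sampling noise in all 24 pairs (chi-square per degree of freedom 3.06 to 9.50).

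The present tests used R 4.3.3 with limma 3.58.1 and edgeR 4.0.16. The filter was filterByExpr by group (minimum count 10), which kept 8236 genes holding 95.7% to 98.3% of a library's UMIs. Counts were scaled with TMM factors. A quasi-likelihood model over the 16 libraries held group coefficients plus sex (11 residual degrees of freedom). P-values were adjusted by the Benjamini-Hochberg method over all tested genes and called under 0.05. Effects are log2 fold changes ± SE. Levels are CPM.

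The members and lists were chosen with earlier results of these data known. Values in every library are given for members among the 4 highest or 4 lowest called log2 fold changes of any comparison and for Hspa5, Xbp1, Atf6, Ern1 and Eif2ak3. Up to 3 called genes of the other pathway lists at either end were eligible to be named per comparison. The ATF4 genes named were chosen after their values were seen. Alternatives were RLE factors, library totals, scaling without digestive enzymes, no filter, a mean count of at least 20, DESeq2 1.42.0, no sex covariate, female libraries alone, a replicate block, equal depth, and libraries left out. The script was tested on simulated data with known changes.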

Additional observations from a re-analysis of the deposited data

Results flagged for a closer look

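The cerulein response differed between the genotypes for 16 members by the test of the interaction (edgeR adjusted p under 0.05), each with a larger log2 fold change in Adam17ex than in WT. Among chaperones the differences, Adam17ex minus WT, were 1.88 for Creld2, 1.86 for Dnajb9, 1.84 for Hyou1, 1.47 for Sdf2l1, 1.46 for Dnajb11 and 1.31 for Dnajc3. Among folding enzymes they were 2.06 for Fkbp11, 1.28 for Pdia6, 1.04 for Fkbp2 and 0.94 for P4hb. Among degradation genes they were 1.79 for Herpud1, 1.55 for Syvn1, 1.35 for Derl3, 1.31 for Sel1l and 1.28 for Edem1. The sensor gene Eif2ak3 had a difference of 1.43.

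Single libraries stood apart from the other 3 of their group, by Dixon's criterion at 95%, in 6 of the 156 groups of 4 values examined. Chance flags about 1 in 20 groups. Derl3 had 49.0 CPM in Adam17ex cerulein replicate 4, and the other 3 libraries of the group 21.6 to 24.9 CPM. In Adam17ex PBS libraries, Hyou1 had 78.0 CPM in replicate 1 against 32.3 to 38.7, Canx had 445 CPM in replicate 1 against 235 to 247, Fkbp11 had 421 CPM in replicate 2 against 283 to 301 and Eif2ak3 had 66.7 CPM in replicate 4 against 36.1 to 40.2. Canx had 124 CPM in WT cerulein replicate 1, and the other 3 libraries of the group 178 to 189 CPM.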

How the results depend on the processing

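Over 28 alternatives, 5430 values of members were recomputed. Of these, 5148 kept their direction and call, 229 lost a call, 53 gained one and 0 called values changed sign, while 148 uncalled values changed sign. Calls kept in every alternative that tested the gene were 23 of 33 for cerulein in WT and 8 of 17 for cerulein in Adam17ex. They were 4 of 14 for genotype under cerulein, 1 of 2 for genotype under PBS and 4 of 16 for the interaction. Among these, Creb3l1 for cerulein in WT and Ern1 for genotype under cerulein were tested in 26 of the 28 alternatives. Counts of called members moved by over 1.5 times as follows. Genotype under cerulein gave 14 calls, against 8 with library totals and 4 with female libraries alone. All-gene calls for it were 482 higher and 317 lower, against 844 with library totals and 273 of 8871 with female libraries alone. For the interaction they were 309 higher and 187 lower, against 82 of 8871 with female libraries alone. Genotype under PBS gave 2 calls, against 7 with no filter, 5 without the sex covariate, 1 with female libraries alone and 4 in DESeq2. All-gene calls for it were 52 higher and 60 lower in the main run. They were 331 of 24019 with no filter and 406 of 8236 without the sex covariate. Female libraries alone gave 22 of 8871, and DESeq2 gave 234 of 8236. The count of members also fell without Adam17ex PBS libraries 1 to 3, as did the calls over all genes. The median was then -0.33 for the members and -0.04 over all genes. Cerulein in Adam17ex gave 17 calls, against 10 with female libraries alone and 9 without Adam17ex PBS libraries 1 to 3. The interaction gave 16 calls, against 4 with female libraries alone and 6 without Adam17ex PBS libraries 1 to 3. Leaving out each library in turn gave 27 to 33 calls for cerulein in WT, 12 to 18 for cerulein in Adam17ex, 7 to 15 for genotype under cerulein, 1 to 4 for genotype under PBS and 10 to 19 for the interaction. All-gene calls for cerulein in Adam17ex were 1162 higher and 1331 lower in the main run, against 1422 of 8871 with female libraries alone. Calls over all genes also fell without Adam17ex PBS libraries 1 to 3, for cerulein in Adam17ex and for the interaction. The members' medians were then -0.22 and 0.97, against 0.04 and 0.08 over all genes. Female libraries alone and the sets of left-out libraries hold fewer samples. Without Adam17ex PBS libraries 1 to 3, the lone remaining library was assumed to vary like the other groups. The cause of the other moves was not tested. Library totals moved the median of all genes to 0.19 for cerulein in WT, -0.24 for genotype under cerulein and -0.21 for the interaction. Leaving out WT PBS libraries 1 and 2 was added after seeing the data.

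Whether the replicate numbers pair the libraries was not settled, and the main model used no pairing. Deviations of same-numbered libraries correlated at -0.22 to 0.24 over 24 pairs, with 5 pairs above 0.1. Of 16 libraries, 6 correlated best with their own number. These values are a hint from the data and not from the design, and cannot exclude a pairing. With the replicate block, genotype under PBS gave 4 calls, and the counts of the other comparisons were 33, 17, 12 and 16. All-gene calls for genotype under PBS were then 230 of 8236, against 52 higher and 60 lower in the main run.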
